A study of Homo sapiens with 27 samples.

Results

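The genes described here are 10 members of the Notch pathway that were measured in MCF10A cells: the receptors NOTCH1, NOTCH2 and NOTCH3, the ligands JAG1, JAG2 and DLL1, the target genes HES1, HEY1 and NRARP, and LFNG, an enzyme that modifies the receptors. They were chosen by gene symbol, with table entries that share a symbol added together, and they are 10 of the 36536 named genes and identifiers in the deposited table (11 of 40487 entries, since DLL1 had 2). MCF10A is a human breast epithelial line that is established in culture and does not form tumours. The cells were seeded on collagen-coated plates in growth medium holding 20 ng/ml epidermal growth factor (EGF), and were then held for 18 h without growth factors. After that they received PBS (the solvent control), EGF, OSM (oncostatin M, an interleukin-6 type cytokine) or TGFB (transforming growth factor beta). The remaining groups received EGF+OSM, EGF+TGFB, OSM+TGFB, or EGF+OSM+TGFB, each ligand at 10 ng/ml, and RNA was taken 24 h later. A further group, T0, was taken at 0 h, when the ligands would have been added. There were 27 libraries, 3 for each of the 9 groups. The groups share the EGF in the earlier growth medium and the period without growth factors, and all come from 1 cell line. The labels do not say whether replicates came from separate cultures, so the p-values measure the spread between these libraries, which may be technical.

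Notch receptors are cleaved when a ligand of the Jagged or Delta-like family on a neighbouring cell binds them, first by an ADAM protease and then by gamma-secretase. The freed intracellular part joins RBPJ and a Mastermind protein on DNA and turns on genes such as HES1, HEY1 and NRARP. HES1 and HEY1 are repressors, NRARP binds the Notch nuclear complex and lowers its output, and LFNG adds a sugar to the receptors that changes their response to Jagged and Delta-like ligands. In breast and skin epithelium the pathway is known for its part in the choice between basal and luminal or differentiated fates. Levels below are gene-level RNA and say nothing of receptor cleavage.

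The stretches just before the starts of HES1, NRARP and LFNG are shown because these genes gave clearly different responses to the same ligands. The core letters recognised by RBPJ, TGGGAA, were searched on both strands in the 250 bases before the start in RefSeq (GRCh38.p14), and matches are in capitals.
HES1, chr3:194135898-194136147, plus strand: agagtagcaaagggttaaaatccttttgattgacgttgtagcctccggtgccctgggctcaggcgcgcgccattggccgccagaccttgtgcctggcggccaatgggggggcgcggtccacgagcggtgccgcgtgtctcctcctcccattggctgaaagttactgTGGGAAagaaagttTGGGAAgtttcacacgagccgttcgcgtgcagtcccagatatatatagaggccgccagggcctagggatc
NRARP, chr9:137302272-137302521, minus strand: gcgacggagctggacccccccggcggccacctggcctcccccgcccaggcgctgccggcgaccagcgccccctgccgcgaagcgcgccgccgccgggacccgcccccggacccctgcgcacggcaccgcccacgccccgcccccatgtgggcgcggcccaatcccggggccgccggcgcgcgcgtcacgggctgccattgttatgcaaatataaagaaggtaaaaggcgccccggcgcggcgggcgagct
LFNG, chr7:2517613-2517862, plus strand, the later of its 2 starts in the table: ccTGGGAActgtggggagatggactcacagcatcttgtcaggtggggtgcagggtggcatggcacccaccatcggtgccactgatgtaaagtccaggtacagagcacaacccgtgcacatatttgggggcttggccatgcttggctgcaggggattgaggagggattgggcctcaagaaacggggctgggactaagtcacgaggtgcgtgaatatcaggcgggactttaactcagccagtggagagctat
HES1 held 2 matches, from -84 to -79 and from -70 to -65 counted from the start, and LFNG held 1 in this window, from -248 to -243. NRARP held none in its window, nor did the other LFNG window or those of NOTCH1, NOTCH2, NOTCH3, JAG1 and JAG2. Of 35116 such windows of all genes, 20.8% held the letters at least once and 2.9% held them at least 2 times. The HES box CACNAG, in which N is any base, was found 3 times in the HES1 window, once each in the LFNG window printed here and in the NOTCH3 window, and in 32% of all windows. The letters TTCNNNGAA (STAT factors, 6.57% of all windows), CAGACA (SMAD factors, 13.6%) and TGANTCA (AP-1, 6.57%) were in no window of these 8 genes. A match describes letters in the window and is not evidence of binding.

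The libraries held 30.1 to 52.9 M (mega) counts (median 39.5 M), and mitochondrial transcripts took 1.23% to 3.06% of them. A level is in CPM, the number of counts for every 1 M in a library, scaled between libraries by the trimmed mean of M-values. Every library correlated more closely with its own group (Pearson r of at least 0.9943) than with any other library (at most 0.9871). Usual responders to OSM and EGF moved with the labels: the STAT3 target SOCS3 rose from 1.49 ± 0.319 CPM in PBS to 165 ± 19.9 CPM in OSM, and the ERK target DUSP6 to 95.9 ± 6.54 CPM in EGF from 5.40 ± 0.379 (SD, n = 3). DUSP6 was also higher in OSM, at 66.6 ± 15.7 CPM, and so does not mark the EGF label alone. The 8 basal mammary epithelial markers were all at a mean of 1 CPM or more, from TP63 at 134 to KRT5 at 6147 CPM, and their sum ran from 12270 CPM in PBS to 28340 CPM in OSM+TGFB. Of 3 luminal hormone-receptor markers none reached 1 CPM, and their sum ran from 0.853 CPM in EGF+OSM+TGFB to 3.05 CPM in OSM. Of each 4 fibroblast, endothelial and immune markers 1 did (DCN, KDR and CD14), with sums by group of 8.69 to 96.5, 1.34 to 31.2 and 2.02 to 63.8 CPM, while PDGFRA, CDH5 and MS4A1 stayed under 0.1 CPM on average. The proliferation gene MKI67 was at 143 CPM in T0, 21.6 in PBS, 518 in EGF, 309 in OSM, 13.9 in TGFB, 634 in EGF+OSM, 272 in EGF+TGFB, 89.9 in OSM+TGFB and 280.3 in EGF+OSM+TGFB. Its part, and that of the marker sums, in the differences below was not tested. In these bulk libraries, fewer cells that express a gene and less RNA per cell cannot be told apart.

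The Notch genes did not move as a block. At 24 h with EGF, 2 members rose (JAG1 and NRARP) and 6 fell (NOTCH1, NOTCH2, NOTCH3, HES1, HEY1 and LFNG), by edgeR's quasi-likelihood test at a Benjamini-Hochberg adjusted p under 0.05 over 15575 genes. The same test called 73.5% of all genes, 34.9% higher and 38.6% lower. With OSM, 3 rose (JAG1, DLL1 and NRARP) and 4 fell (NOTCH1, NOTCH2, HEY1 and LFNG), where 63.4% of all genes were called, 33.5% higher and 29.8% lower. With TGFB, JAG1 and LFNG rose and 0 members fell in edgeR's test (1, NOTCH1, at an unadjusted p under 0.05 and by DESeq2), where 35.6% of all genes were called, 19.9% higher and 15.8% lower. In the combinations against PBS, 3 members rose and 6 fell with EGF+OSM (77.2% of all genes called, 37.6% higher and 39.6% lower), and 2 rose and 7 fell with EGF+TGFB (73.7% called, 36.2% higher and 37.5% lower). With OSM+TGFB 3 rose and 3 fell (66% called, 34.2% higher and 31.8% lower), and with the 3 ligands 3 rose and 7 fell (74.4% called, 37.7% higher and 36.7% lower). The share of members called was 80% for EGF, 70% for OSM and 20% for TGFB, so the counts lie near what the ligands did to genes at large, and the sizes and directions below carry the description. All 10 members passed the filter on low counts, DLL1 through T0 and the groups with OSM.

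**Figure D1:**
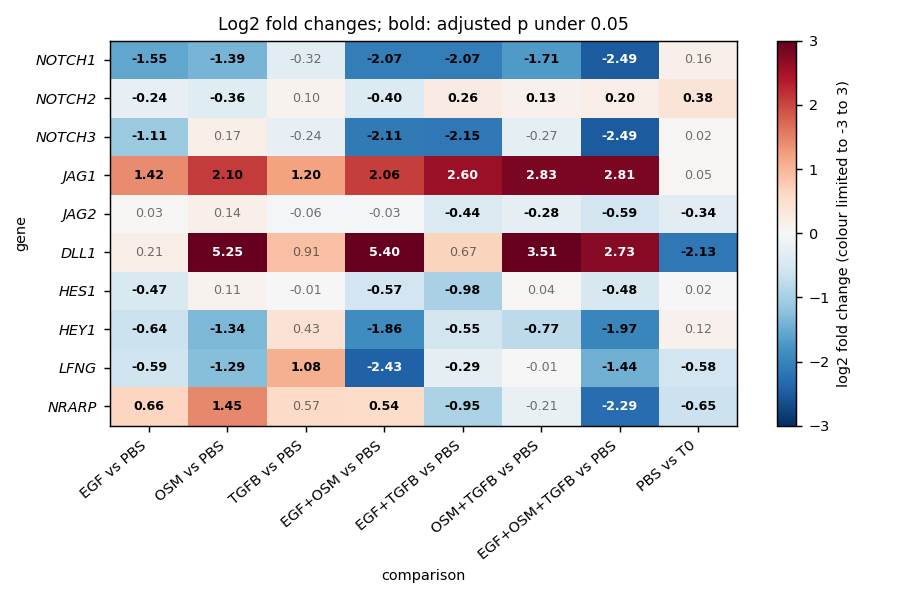
Log2 fold changes of the 10 genes (vertical axis) in 8 comparisons (horizontal axis), with the colour scale running from -3 to 3 and values in bold where the adjusted p was under 0.05. JAG1 is higher in all 7 treatments against PBS, from 1.20 to 2.83, and NRARP runs from 1.45 with OSM to -2.29 with the 3 ligands together.

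NOTCH1 (ENSG00000148400, chromosome 9, 136494433 to 136546048, minus strand, 34 exons in GENCODE v44 on GRCh38) fell more than 2-fold with EGF and with OSM. Its libraries stood at 346, 329 and 344 CPM in PBS, 120.2, 123 and 103 CPM in EGF, 143, 144 and 102 CPM in OSM and 292, 278 and 245 CPM in TGFB. The EGF and OSM libraries all lay far under PBS and overlapped each other, and the TGFB libraries lay a little under PBS without overlap. The log2 fold change was -1.55 ± 0.13 (SE) with EGF, a 2.94-fold fall (adjusted p 4.00e-10, edgeR's quasi-likelihood test, Benjamini-Hochberg adjusted). With OSM it was -1.39 ± 0.13, a 2.62-fold fall (adjusted p 3.76e-09, same test). With TGFB it was -0.32 ± 0.13 and just missed the threshold (adjusted p 0.0500), and 5 of 13 alternatives called it, with adjusted p from 0.00125 to 0.184. The combinations averaged lower, with 83.8, 85.7 and 73.1 CPM in EGF+OSM, 81.0, 82.2 and 78.7 CPM in EGF+TGFB and 119, 111 and 81.8 CPM in OSM+TGFB. EGF+OSM+TGFB was lowest, with 57.1, 68.0 and 55.9 CPM, 5.63-fold under PBS and without overlap with any other group.

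NOTCH3 (ENSG00000074181, chromosome 19, 15159038 to 15200995, minus strand) fell with EGF and gave no call with OSM alone. Its libraries read 69.3, 76.1 and 88.2 CPM in PBS, 34.1, 38.3 and 35.6 CPM in EGF, 89.4, 98.2 and 74.6 CPM in OSM and 64.5, 62.7 and 70.3 CPM in TGFB. EGF lay wholly under PBS, while OSM and TGFB overlapped it. EGF lowered NOTCH3 2.16-fold (log2 -1.11 ± 0.17, adjusted p 7.58e-06, edgeR's quasi-likelihood test), and OSM gave a log2 fold change of 0.17 ± 0.17 (adjusted p 0.404). On top of EGF, however, OSM and TGFB each lowered it about as much again: the libraries were 18.8, 22.7 and 12.4 CPM in EGF+OSM, 15.04, 18.3 and 19.2 CPM in EGF+TGFB and 13.0, 18.7 and 10.1 CPM in EGF+OSM+TGFB, all under the EGF libraries. OSM added to EGF gave a 2.001-fold fall and TGFB added to EGF a 2.06-fold fall (SE 0.18 and 0.19 on the log2 scale, adjusted p 2.20e-04 and 6.92e-05, same test). OSM+TGFB, without EGF, stood at 63.8, 68.7 and 61.4 CPM and was not called against PBS (log2 -0.27 ± 0.17, adjusted p 0.175), although all 3 libraries lay under the PBS libraries. With only these groups fitted it was called (log2 -0.289, adjusted p 0.0126), the only 1 of 13 alternatives to do so (adjusted p 0.0126 to 0.46).

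NOTCH2 (ENSG00000134250, chromosome 1, 119911553 to 120100779, minus strand) was lower with EGF, OSM and EGF+OSM and higher in the combinations with TGFB. The NOTCH2NL genes, partial copies of NOTCH2 on the same chromosome, are near-identical to its first exons, so how reads were divided among them is uncertain. The libraries read 325, 309.9 and 330.2 CPM in PBS, 252, 290.4 and 272 CPM in EGF, 247, 254 and 251 CPM in OSM and 238, 254 and 239 CPM in EGF+OSM. Every library of these 3 treatments lay under the PBS libraries, by 1.18-fold for EGF, 1.28-fold for OSM and 1.32-fold for EGF+OSM. The groups with TGFB read 341, 356 and 336 CPM in TGFB, 392, 391 and 371 CPM in EGF+TGFB, 347, 367 and 339 CPM in OSM+TGFB and 368, 385 and 355 CPM in EGF+OSM+TGFB. All 12 of these lay above every PBS library, and EGF+TGFB (log2 0.26 ± 0.05), OSM+TGFB (0.13 ± 0.05) and EGF+OSM+TGFB (0.20 ± 0.05) were called higher, while TGFB alone was not (adjusted p 0.132, edgeR's quasi-likelihood test). The OSM+TGFB call was lost in 7 of 13 alternatives, and upper-quartile scaling ended that of EGF+OSM+TGFB (log2 0.105). Between groups with and without TGFB that shared the other ligands, NOTCH2 was higher with TGFB by 0.50 ± 0.05 on EGF, 0.49 ± 0.05 on OSM and 0.60 ± 0.05 on EGF+OSM (log2, SE; adjusted p 5.03e-09, 1.01e-08 and 1.20e-10).

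JAG1 (ENSG00000101384, chromosome 20, 10637684 to 10673999, minus strand), a Jagged ligand, rose in all 7 treatments. Its libraries read 37.4, 33.2 and 35.7 CPM in PBS, 83.9, 78.2 and 81.9 CPM in TGFB, 103, 93.4 and 88.8 CPM in EGF and 157, 141 and 156 CPM in OSM. The 4 groups formed separate steps with no overlap between them. The rises were 2.30-fold with TGFB, 2.68-fold with EGF and 4.27-fold with OSM (adjusted p 1.34e-11, 6.92e-14 and 6.61e-17, edgeR's quasi-likelihood test). EGF+OSM read 157, 137 and 151 CPM and overlapped OSM alone. EGF+TGFB read 243, 213 and 188 CPM, OSM+TGFB 267, 237 and 252 CPM and EGF+OSM+TGFB 264, 254 and 228 CPM. These 3 groups with TGFB and another ligand were the highest, 6.05-fold to 7.11-fold above PBS, and overlapped one another in part.

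What EGF did to JAG1 went with whether OSM was present. EGF raised it by 1.42 ± 0.08 alone and by 1.40 ± 0.08 on TGFB (log2, SE), and the corresponding values were -0.03 ± 0.08 on OSM and -0.02 ± 0.08 on OSM+TGFB. The difference between the EGF effect with and without OSM was -1.46 ± 0.11 (adjusted p 2.15e-10, edgeR's quasi-likelihood test of the interaction). OSM, in turn, added 0.64 ± 0.08 on EGF and 0.21 ± 0.08 on EGF+TGFB, and the call for the latter was lost in 9 of 13 alternatives.

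JAG2 (ENSG00000184916, chromosome 14, 105140982 to 105168824, minus strand), the other Jagged ligand, gave no call with any ligand alone. It read 90.2, 95.4 and 93.8 CPM in PBS, 102, 88.6 and 94.4 CPM in EGF, 109.9, 100.3 and 98.5 CPM in OSM and 93.0, 87.7 and 87.5 CPM in TGFB, and edgeR called 0 of 3 single ligands (lowest adjusted p 0.119, for OSM), as did DESeq2, with 0 of 3 at an unadjusted p under 0.05. The single ligands' libraries overlapped PBS for EGF and TGFB, and those of OSM lay just above it. JAG2 fell where TGFB met another ligand, to 63.7, 62.5 and 81.0 CPM in EGF+TGFB, 82.2, 76.4 and 72.1 CPM in OSM+TGFB and 58.0, 65.8 and 62.5 CPM in EGF+OSM+TGFB. Those 9 libraries all lay under the PBS libraries, by 1.35-, 1.21- and 1.501-fold (adjusted p 2.79e-05, 0.00382 and 3.88e-07, edgeR's quasi-likelihood test). In the same 3 groups JAG1 was at its highest.

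DLL1 (ENSG00000198719, chromosome 6, 170282206 to 170306565, minus strand), a Delta-like ligand, was close to absent without OSM at 24 h. In T0 its libraries held 15 to 27 counts each. T0 and EGF+OSM+TGFB were not called apart (adjusted p 0.106, edgeR's quasi-likelihood test). The PBS libraries held 3 to 6 counts each, 12 in all, and the OSM libraries 125 to 163, 434 in all. Per library that is 0.0750, 0.0647 and 0.147 CPM in PBS and 3.56, 3.62 and 3.94 CPM in OSM. The depth-scaled ratio of the summed counts was 39.25, with a 95% exact interval of 22.24 to 76.56 that covers counting error only, and the adjusted p was 3.55e-12 by edgeR's quasi-likelihood test. EGF alone (15 counts in all) and TGFB alone (21 counts) were not called against PBS. EGF+OSM read 4.12, 3.54 and 4.70 CPM and overlapped OSM.

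TGFB lowered the DLL1 level that OSM gave. OSM+TGFB read 1.18, 0.977 and 1.16 CPM and EGF+OSM+TGFB 0.514, 0.523 and 0.909 CPM, all under the OSM and EGF+OSM libraries and above the PBS libraries. TGFB added to OSM gave a 3.34-fold fall and TGFB added to EGF+OSM a 6.36-fold fall (adjusted p 6.97e-06 and 1.41e-08, edgeR's quasi-likelihood test). DLL1 had a second table entry with its own identifier (ENSG00000275555), which held 711 of the 1231 counts, and how reads were divided between the entries is uncertain. Taken alone, each entry rose with OSM (adjusted p 3.36e-06 and 1.20e-07, same test).

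**Figure D2:**
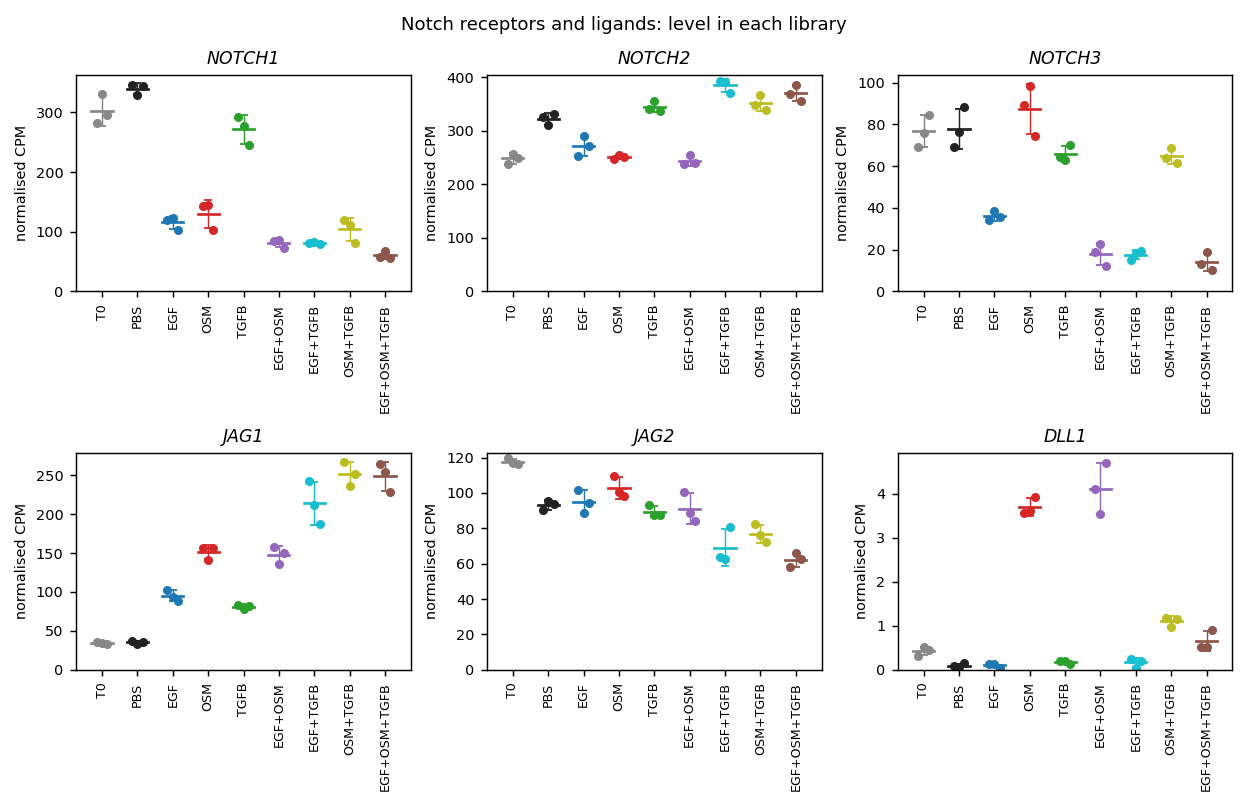
Level of the receptors and ligands (normalised CPM, linear axis from 0, vertical) in each of the 9 groups (horizontal), with points for the 3 libraries and bars for the mean ± SD. NOTCH3 splits into groups with EGF, at or under 38.3 CPM, and groups without it, at 61.4 CPM or more. DLL1 is over 0.5 CPM in every library that received OSM, and also in T0 replicate 2, which did not (0.510 CPM).

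HES1 (ENSG00000114315, chromosome 3, 194136148 to 194138732, plus strand), the repressor shown above with 2 RBPJ core matches, fell with EGF and not with OSM or TGFB. It read 27.04, 30.5 and 28.5 CPM in PBS, 21.1, 21.9 and 19.2 CPM in EGF, 32.8, 32.8 and 27.2 CPM in OSM and 28.7, 28.4 and 28.7 CPM in TGFB. EGF lay wholly under PBS, while OSM and TGFB overlapped PBS. The EGF fall was 1.38-fold (log2 -0.47 ± 0.10, adjusted p 1.75e-04, edgeR's quasi-likelihood test). The log2 fold changes with OSM (0.11 ± 0.10) and TGFB (-0.01 ± 0.10) were not called. EGF+TGFB was lowest, with 14.7, 15.3 and 13.7 CPM, below every other library. There TGFB took a further 1.42-fold from the EGF level (adjusted p 1.76e-04), and OSM added to EGF+TGFB brought HES1 back up 1.41-fold (adjusted p 7.80e-04), to 22.1, 22.4 and 17.2 CPM in EGF+OSM+TGFB. Without EGF, OSM+TGFB read 32.6, 29.3 and 26.3 CPM, around the PBS libraries.

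HEY1 (ENSG00000164683), a second repressor of the same family, was low and fell with OSM and, less, with EGF. It read 1.95, 2.50 and 2.05 CPM in PBS, 1.27, 1.24 and 1.68 CPM in EGF, 1.08, 0.821 and 0.675 CPM in OSM and 2.82, 3.602 and 2.37 CPM in TGFB, on 16 to 150 counts a library. EGF and OSM lay under PBS without overlap, and TGFB reached above it with overlap. HEY1 fell 2.53-fold with OSM and 1.56-fold with EGF (adjusted p 9.88e-06 and 0.00858, edgeR's quasi-likelihood test), and the EGF call was lost without PBS replicate 2 (log2 -0.52). The lowest levels were in EGF+OSM (0.812, 0.512 and 0.480 CPM) and EGF+OSM+TGFB (0.514, 0.557 and 0.596 CPM), 3.62- and 3.91-fold under PBS. OSM lowered HEY1 on every background: by 1.21 on EGF, 1.21 on TGFB and 1.41 on EGF+TGFB (log2 falls, adjusted p at most 2.28e-04). EGF lowered it by 0.99 on TGFB and by 1.19 on OSM+TGFB (log2 falls, adjusted p 1.94e-04 and 2.72e-04, same test). On OSM the EGF fall of 0.52 was not called (adjusted p 0.0755).

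NRARP (ENSG00000198435, chromosome 9, 137299631 to 137302271, minus strand, a single exon), the feedback inhibitor, was higher than in PBS with EGF, OSM and EGF+OSM, and lower with EGF+TGFB and with the 3 ligands. Its libraries read 1.43, 1.57 and 1.71 CPM in PBS, 2.54, 2.33 and 2.56 CPM in EGF, 4.67, 4.33 and 3.86 CPM in OSM and 3.03, 1.90 and 2.07 CPM in TGFB. All 9 libraries with a single ligand lay above every PBS library, OSM furthest. NRARP rose 2.72-fold with OSM and 1.58-fold with EGF (adjusted p 3.60e-06 and 0.0119, edgeR's quasi-likelihood test). TGFB gave a log2 fold change of 0.57 ± 0.23 that was not called (adjusted p 0.0558). DESeq2 called it, as did leaving out TGFB replicate 2 (log2 0.70).

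Where TGFB was combined with another ligand, NRARP was lower than with that ligand alone. It read 0.852, 0.668 and 0.960 CPM in EGF+TGFB, 1.18, 1.47 and 1.42 CPM in OSM+TGFB and 0.269, 0.557 and 0.157 CPM in EGF+OSM+TGFB. The last group, on 5 to 16 counts a library, lay under all other libraries, 4.89-fold below PBS (adjusted p 1.37e-07). TGFB lowered NRARP 3.03-fold on EGF, 3.16-fold on OSM and 7.12-fold on EGF+OSM (adjusted p 4.89e-06, 1.33e-06 and 4.83e-09, edgeR's quasi-likelihood test). EGF+OSM, without TGFB, read 2.11, 2.82 and 1.92 CPM, above PBS without overlap. That call (log2 0.54 ± 0.23) was lost without PBS replicate 1 or 2 or EGF+OSM replicate 2 (log2 0.361 to 0.545) and with upper-quartile scaling (log2 0.458).

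LFNG (ENSG00000106003, chromosome 7, 2512529 to 2529177, plus strand), the fringe glycosyltransferase, was raised by TGFB and lowered by EGF and by OSM. It read 19.4, 20.8 and 21.9 CPM in PBS, 13.3, 13.9 and 14.1 CPM in EGF, 8.97, 7.88 and 8.64 CPM in OSM and 43.8, 43.9 and 43.2 CPM in TGFB. The 4 groups did not overlap. TGFB raised it 2.11-fold, EGF lowered it 1.503-fold and OSM 2.44-fold (adjusted p 1.45e-11, 1.95e-07 and 4.51e-13, edgeR's quasi-likelihood test). EGF+OSM read 4.28, 3.93 and 3.29 CPM, the lowest group, 5.40-fold under PBS. OSM+TGFB read 22.8, 20.0 and 18.8 CPM, and its log2 difference from PBS was -0.01 ± 0.08. EGF+TGFB (16.8, 17.1 and 16.8 CPM) and EGF+OSM+TGFB (7.53, 7.18 and 8.15 CPM) lay under PBS. Each ligand moved LFNG the same way on every background tested: EGF and OSM downward in 4 of 4, TGFB upward in 4 of 4.

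**Figure D3:**
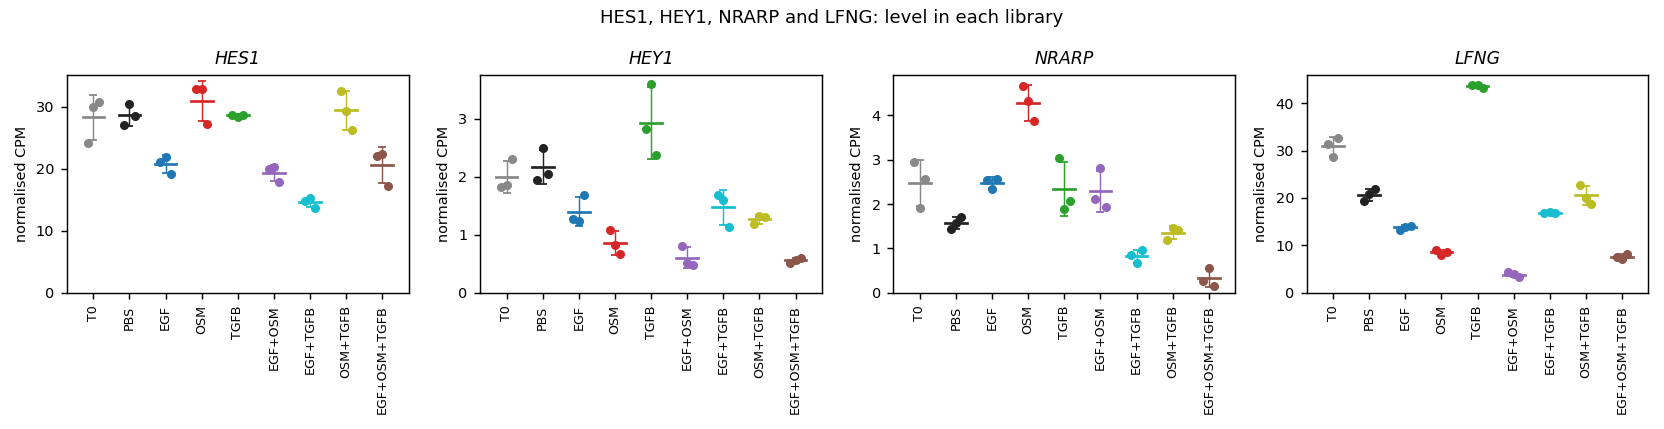
Level of HES1, HEY1, NRARP and LFNG (normalised CPM, linear axis from 0, vertical) in each of the 9 groups (horizontal), with points for the 3 libraries and bars for the mean ± SD. NRARP is highest with OSM (4.29 ± 0.406 CPM) and lowest with the 3 ligands together (0.328 ± 0.207 CPM), and LFNG is highest with TGFB (43.6 ± 0.376 CPM).

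Groups that differed by 1 ligand were also compared where both held another ligand ("OSM added to EGF" is EGF+OSM against EGF). The ligands of a combination were given for the same 24 h, and the PBS libraries entered these tests only through the scaling, the filter and the shared estimate of the spread. OSM added to EGF was called for 7 members, 2 higher and 5 lower, where 34.9% of all genes were called, 17.8% higher and 17.1% lower. EGF added to OSM lowered 5 members and raised 0, also 0 at an unadjusted p under 0.05 and by DESeq2 (61.7% of all genes called, 29.9% higher and 31.8% lower). TGFB added to EGF raised 3 and lowered 5 (54.6% called, 27% higher and 27.7% lower), and EGF added to TGFB raised 2 and lowered 7 (69.4% called, 33.9% higher and 35.5% lower), of which the NOTCH2 rise (0.16 ± 0.05) was lost with upper-quartile scaling (log2 0.098). TGFB added to OSM raised 4 and lowered 5 (51.6% called, 26.1% higher and 25.6% lower; 6 to 8 members called with any 1 library left out), and OSM added to TGFB raised 2 and lowered 5 (56.6% called, 30.1% higher and 26.4% lower). With the third ligand, TGFB raised 3 and lowered 4 on EGF+OSM (61.1% called, 31.6% higher and 29.5% lower), and OSM raised 3 and lowered 4 on EGF+TGFB (26.4% called, 13.6% higher and 12.8% lower). EGF added to OSM+TGFB lowered 8 and raised 0 (0 as well at an unadjusted p under 0.05 and by DESeq2), where 52.2% of all genes were called, 26.3% higher and 25.9% lower. The 8 were NOTCH1, NOTCH3, JAG2, DLL1, HES1, HEY1, LFNG and NRARP, with log2 falls from 0.31 (JAG2) to 2.22 (NOTCH3). The DLL1 fall among them (-0.77 ± 0.31) was not called without OSM+TGFB replicate 1 or 3 or EGF+OSM+TGFB replicate 1 or 2. It was also not called with only its entry with more counts, or with no filter on low counts (log2 -0.754 to -0.364 over these settings). TGFB added to OSM gave opposite calls for HEY1 (0.57 ± 0.23) and NOTCH3 (-0.44 ± 0.17), which were lost in 9 of 13 alternatives for HEY1 and, for NOTCH3, without OSM replicate 1 or 2, without any 1 of the OSM+TGFB libraries, or with no filter (log2 -0.482 to -0.343).

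**Figure D4:**
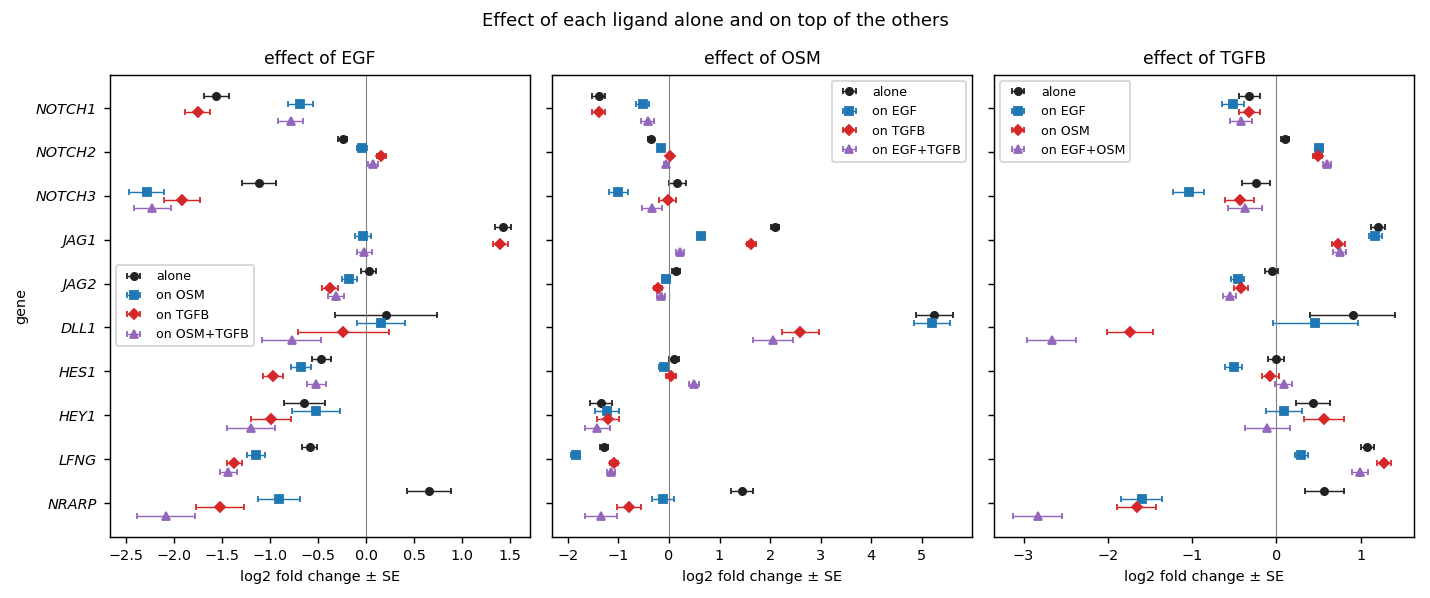
Log2 fold change ± SE (horizontal axis) of each gene (vertical axis) for EGF, OSM and TGFB, given alone and together with the other ligands. EGF moves JAG1 by 1.42 alone and -0.03 on OSM, and TGFB moves NRARP by 0.57 alone and -2.83 on EGF+OSM.

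The study's design also asks whether combined responses equal the sum of the single ones. Here the log2 fold changes of the single ligands against PBS were added up and subtracted from that of their combination, and the difference is called the departure (for a pair, the interaction term). Adding log2 values multiplies folds, so a departure and its sign hold for the log2 scale. Sums of changes in CPM were not compared and can give another sign. For EGF+OSM, 6 members departed, 2 upward and 4 downward (38.7% of all genes called, 15.7% upward and 23% downward). For EGF+TGFB, 1 departed upward and 5 downward (29.8% called, 13.3% upward and 16.5% downward). For OSM+TGFB, 1 departed upward and 4 downward (23.3% called, 9.61% upward and 13.7% downward). For the 3 ligands, 2 departed upward and 6 downward (48% called, 22% upward and 25.9% downward). These comparisons share the PBS libraries, and their values are given side by side. By its definition the departure for the 3 ligands includes those of the 3 pairs, so it is not a separate case.

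NRARP departed downward in all 4 combinations. The single responses added up to 2.10 (EGF+OSM), 1.22 (EGF+TGFB), 2.01 (OSM+TGFB) and 2.67 (the 3 ligands), and the combinations gave 0.54, -0.95, -0.21 and -2.29 (log2). The departures were -1.56 ± 0.32, -2.17 ± 0.34, -2.23 ± 0.33 and -4.96 ± 0.51 (SE; adjusted p at most 2.88e-04, edgeR's quasi-likelihood test). In OSM+TGFB the NRARP libraries thus overlapped PBS although each of the 2 ligands alone gave higher libraries.

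All 3 ligand genes departed downward in OSM+TGFB, JAG1 also in EGF+OSM and JAG2 also in EGF+TGFB. With EGF, OSM and TGFB together all 3 genes departed downward too, JAG1 by -1.91 ± 0.17, JAG2 by -0.70 ± 0.16 and DLL1 by -3.63 ± 0.95. The last value rests on few DLL1 counts in PBS, EGF and TGFB. On the log2 scale JAG1 fell short of the sum by 1.46 in EGF+OSM and by 0.46 in OSM+TGFB. In EGF+TGFB its departure was -0.03 ± 0.11 (adjusted p 0.895, edgeR's quasi-likelihood test). Its mean levels were 35.4 CPM in PBS, 151 in OSM, 81.3 in TGFB and 252 in OSM+TGFB. DLL1 fell short by 2.65 in OSM+TGFB (SE 0.57, adjusted p 0.00140), a value that rests on few counts in PBS and TGFB. JAG2 fell short by 0.40 in EGF+TGFB and by 0.36 in OSM+TGFB, the latter lost without PBS 1, OSM 1, TGFB 1 or OSM+TGFB 3 (log2 -0.337 to -0.31).

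Among the receptors, NOTCH1 fell less than the sum in EGF+OSM (departure 0.87 ± 0.18) and by the sum in OSM+TGFB within its error (0.00 ± 0.18). NOTCH3 fell more than the sum in EGF+OSM (-1.17 ± 0.25, adjusted p 8.25e-04, edgeR's quasi-likelihood test) and in EGF+TGFB (-0.80 ± 0.25), the latter lost without PBS 1 or EGF+TGFB 1 or with no filter on low counts (log2 -0.755 to -0.702). NOTCH2 departed upward in all 4 combinations, by 0.20 to 0.71, of which EGF+OSM was lost without PBS 3, EGF 1 or EGF+OSM 2 and with only the compared groups fitted (log2 0.154 to 0.185). With the 3 ligands together, NOTCH1 departed by 0.77 ± 0.25 and NOTCH3 by -1.30 ± 0.35, both called. Of the remaining genes, LFNG departed downward in EGF+OSM (-0.56 ± 0.12), in EGF+TGFB (-0.78 ± 0.11) and with the 3 ligands (-0.64 ± 0.16). HES1 did so only in EGF+TGFB (-0.50 ± 0.14) among the 4 combinations. HEY1 departed in 0 of 4 by edgeR, with 0 of 4 at an unadjusted p under 0.05 and 0 of 4 by DESeq2.

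**Figure D5:**
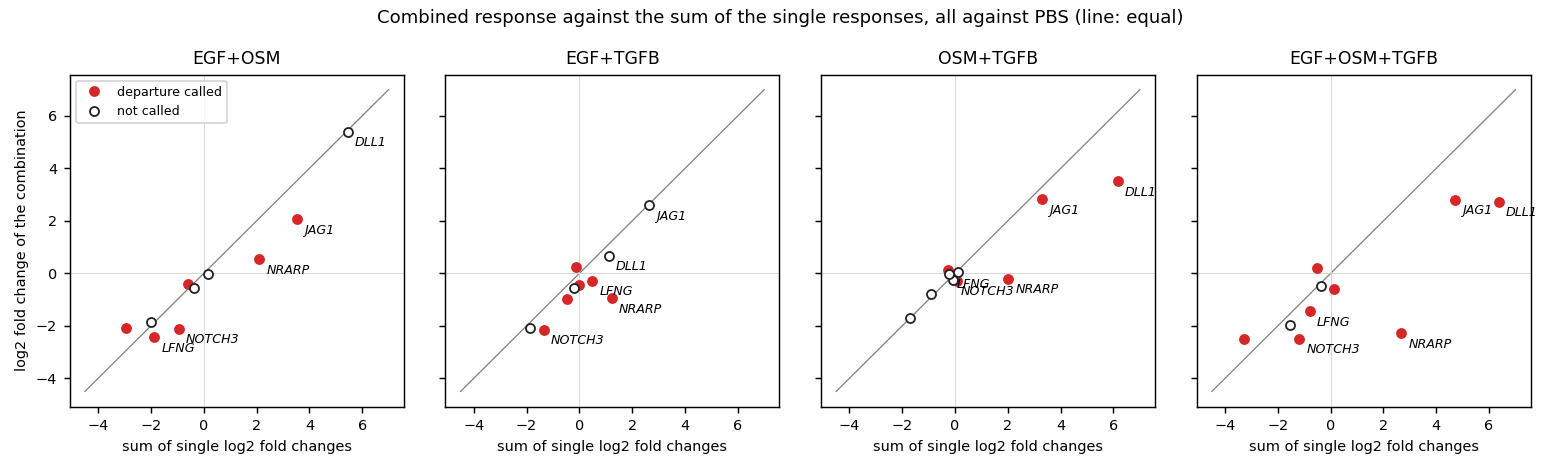
Log2 fold change of each combination against PBS (vertical axis) against the sum of the single-ligand log2 fold changes (horizontal axis) for the 10 genes, with the line of equality and filled points where the departure was called. NRARP lies under the line in all 4 panels, and DLL1 lies on it in EGF+OSM and 2.65 under it in OSM+TGFB.

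The 24 h in medium without growth factors, from T0 to PBS, raised 1 member and lowered 4 (35.1% of all genes called, 16.2% higher and 18.9% lower). MKI67 fell over the same interval, as given above, and its part in these differences was not tested. NOTCH2 rose from 237, 257 and 249.7 CPM in T0, without overlap with PBS, by 0.38 ± 0.05 (log2, SE). LFNG fell from 31.4, 28.7 and 32.7 CPM, JAG2 from 119.6, 117 and 117 CPM and DLL1 from 0.319, 0.510 and 0.443 CPM (15 to 27 counts a library), in each case without overlap. Their log2 changes were -0.58 ± 0.07, -0.34 ± 0.08 and -2.13 ± 0.43 (adjusted p 1.22e-06, 0.00149 and 3.32e-04, edgeR's quasi-likelihood test). The DLL1 call was lost when its entry with more counts was taken alone (log2 -1.32), and no value was taken for the other entry. The NRARP fall (-0.65 ± 0.23) was called, and lost without T0 replicate 1 or 3 or PBS replicate 1 or 2 (log2 -0.651 to -0.503). NOTCH1, NOTCH3, JAG1, HES1 and HEY1 were not called between T0 and PBS, with log2 changes from 0.02 to 0.16.

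Ordered from low to high, neighbouring groups were separate (no overlap of libraries and a called difference) in 6 of 8 steps for LFNG, 4 of 8 for JAG1 and NRARP, 3 of 8 for DLL1, 2 of 8 for NOTCH1, NOTCH3, JAG2 and HES1, and 1 of 8 for NOTCH2 and HEY1. For NOTCH1 the clear step was between the 6 groups with EGF or OSM, at 129.7 CPM or less on average, and TGFB, T0 and PBS, at 271 CPM or more. For HES1 it was between the 4 groups with EGF and the 5 without, for NOTCH3 likewise, and for DLL1 between OSM or EGF+OSM and the rest. Divided by transcript length (the canonical transcript in GENCODE v44), the PBS levels per kilobase ran from 35.5 CPM for NOTCH1 and 28.2 for NOTCH2 through 18.2 for HES1, 16.1 for JAG2, 8.97 for NOTCH3, 8.46 for LFNG and 5.97 for JAG1 to 0.987 for HEY1, 0.595 for NRARP and 0.0253 for DLL1. In OSM the same measure gave 25.5 CPM per kilobase for JAG1 and 13.6 for NOTCH1, so that the order of these 2 genes was the other way round. NOTCH2 (21.9) stayed above JAG2 (17.8) in OSM.

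Of 48 other Notch pathway genes in 6 lists, 44 were tested. With EGF, 11 rose and 25 fell, where 73.5% of all genes were called, 34.9% higher and 38.6% lower (median log2 fold change -0.32, beside -0.07 for all genes). With OSM 10 rose and 17 fell, where 63.4% were called, 33.5% higher and 29.8% lower (-0.09 beside 0.00), and with TGFB 15 rose and 4 fell, where 35.6% were called, 19.9% higher and 15.8% lower (0.09 beside -0.01). Counts in lists of so few genes are read against these shares, and none is called particular to its list. The remaining 4 (HES5, HEY2, HEYL and DLK1) were at most at 0.0343 CPM in any library and were not tested. In the protease and secretase list, 6 of 9 fell and 2 rose with EGF, 4 fell and 2 rose with OSM, and 4 rose with TGFB (all genes: 73.5%, 63.4% and 35.6% called). ADAM10, which makes the first cut after a ligand binds, went from 172 ± 3.98 CPM in PBS to 110.1 ± 5.46 CPM in EGF (SD, n = 3). Its log2 fold change was -0.64 ± 0.05 (SE). APH1B, a gamma-secretase subunit, went from 8.45 ± 0.655 to 2.70 ± 0.211 CPM (log2 -1.64 ± 0.13).

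In the trafficking and turnover list, 10 of 13 fell and 2 rose with EGF, 6 fell and 4 rose with OSM, and 1 fell and 5 rose with TGFB, beside 73.5%, 63.4% and 35.6% of all genes called. The ubiquitin ligase MIB2, which acts on Notch ligands, fell from 19.6 ± 2.34 to 7.34 ± 1.24 CPM with EGF. The Deltex genes DTX4 (-1.10 ± 0.08), DTX3 (-1.58 ± 0.27) and DTX1 (-1.68 ± 0.44) also fell with EGF (log2, SE). From PBS to EGF, DTX4 went from 64.3 to 29.9 CPM. DTX3 (0.839 to 0.276 CPM) and DTX1 (0.665 to 0.203 CPM) were under 1 CPM in both groups, so their folds rest on few counts. NEURL1, a neuralized-type ubiquitin ligase, fell with EGF (-3.10 ± 0.52) and OSM (-2.88 ± 0.52) from 0.956 ± 0.173 CPM in PBS. Its relative NEURL1B rose with TGFB from 19.1 ± 1.09 to 43.0 ± 0.324 CPM (1.17 ± 0.13) and stood at 95.4 ± 9.42 CPM with the 3 ligands.

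In the nuclear complex list, 6 of 10 fell and 2 rose with EGF, 5 fell and 3 rose with OSM, and 1 fell and 5 rose with TGFB (73.5%, 63.4% and 35.6% of all genes). MAML3, a Mastermind coactivator, fell from 22.7 ± 0.391 CPM in PBS to 5.95 ± 0.716 CPM in EGF and 8.72 ± 0.922 CPM in OSM (log2 -1.93 ± 0.11 and -1.38 ± 0.11), and stood at 1.59 ± 0.284 CPM with the 3 ligands. KAT2B, an acetyltransferase of the complex, fell with OSM (-1.77 ± 0.11), while RBPJ itself rose from 57.8 ± 1.46 to 67.6 ± 2.09 CPM in EGF and 66.7 ± 3.90 CPM in OSM. Among the other HES and HEY genes, 2 of 4 tested rose with EGF, 1 fell with OSM, and 1 rose with TGFB. HES4 (1.06 ± 0.24) and HES6 (1.36 ± 0.24) rose with EGF, where HES1 and HEY1 fell, and HES7 fell with OSM (-1.08 ± 0.32). From PBS to EGF, HES4 went from 3.42 to 7.16 CPM and HES6 from 1.06 to 2.72 CPM. HES2, the highest gene of this list, stood at 82.4 CPM in PBS and 67.1 CPM in EGF and was not called. The HES and HEY genes called with EGF thus did not all move the same way.

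The remaining lists were the other receptors and ligands, where 1 of 4 tested rose and 1 fell with EGF and 1 fell with TGFB, and the glycosyltransferases, where 2 of 4 rose and 2 fell with EGF, 1 rose and 1 fell with OSM, and 1 fell with TGFB. The shares of all genes called were again 73.5%, 63.4% and 35.6%. DLL4, a further Delta-like ligand, fell with EGF from 0.384 ± 0.0815 to 0.111 ± 0.0111 CPM, DLL3 rose from 1.07 ± 0.143 to 2.22 ± 0.459 CPM, and the fringe gene MFNG rose from 0.0801 ± 0.0398 to 0.426 ± 0.152 CPM (log2 -1.77 ± 0.44, 1.05 ± 0.21 and 2.38 ± 0.53), all near or under 2 CPM. LFNG, also a fringe gene, fell with EGF as given above.

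The genes whose levels ran most like each member were taken from 10426 named protein-coding genes with a mean of at least 5 CPM, by Pearson r of log2(CPM + 1) over the 27 libraries. These libraries fall into 9 groups, so the values describe shared group patterns. The choice depends on the measure. By Spearman correlation over the same libraries, BACE2 ranked 81 for DLL1 and MXI1 ranked 52 for HES1, while NAV2 for LFNG and MAZ for NRARP ranked 1. NOTCH1 ran with GDF15 (r = 0.989) and ANKRD33B (0.984), NOTCH2 with GPR157 (0.963) and MAFF (0.953), and NOTCH3 with GRHL1 (0.972) and IMPA2 (0.969). JAG1 ran with ADAM19 (0.990) and TUBB3 (0.987), JAG2 with TYSND1 (0.931) and DDB2 (0.925), and DLL1 with MFF (0.954) and BACE2 (0.934). HES1 ran with MXI1 (0.949) and NOP53 (0.939), HEY1 with MAP2 (0.935) and DAG1 (0.935), LFNG with NAV2 (0.980) and HIP1 (0.973), and NRARP with MAZ (0.886) and KAZN (0.883). Among the members, r over the same libraries was 0.903 for HEY1 and LFNG, 0.874 for NOTCH3 and HES1, -0.893 for NOTCH1 and JAG1, and -0.801 for NOTCH2 and JAG2. NOTCH1 and NOTCH2 were at -0.196.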

How the data were processed

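Per the labels' protocols, the 27 libraries were prepared from mRNA with a kit that keeps strand. The deposited values are estimated counts per gene, already whole numbers, made by the authors with kallisto 0.46.2 after trimming with Trim Galore 0.4.3 and cutadapt 1.10, on GRCh38.p5, per the submitters' processing notes. The annotation version, the strand setting and any rounding are not given in the sources used here. Groups came from the sample titles. Entries were summed by symbol, and those without one (7165 entries, 0.324% of counts) kept their identifier. Genes were filtered with filterByExpr by group, which left 15575 and removed 9754 with any count, and were scaled by TMM (factors 0.867 to 1.12). A quasi-likelihood model in edgeR 4.0.16 (R 4.3.3) had a mean for each group (glmQLFit, robust, 18 residual degrees of freedom, common biological variation 7.83%, prior count 0.125), and p-values were adjusted over all genes tested in each of 21 comparisons. The script was tested on simulated data. The SE is the log2 fold change divided by the root of F. Counting intervals are exact and cover counting error only, since no molecular identifiers are recorded. DESeq2 1.42.0, other scalings, filters and fits, and leaving out each library were tried. The promoter search used only the bases before each start. The 10 genes, the pathway lists and the rule for naming were chosen with earlier results of these data known. The text names the 10 genes, the listed pathway genes called with over 2-fold change for a single ligand (ADAM10, RBPJ and HES2 were added after their values were seen), and the 2 genes most like each member. The labels name no batch.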

Additional observations from a re-analysis of the deposited data

Results flagged for a closer look

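A total of 17 departures of pairs of ligands from the sum of the single responses were called (edgeR's quasi-likelihood test of the interaction, adjusted p under 0.05). A call means that the effect of 1 ligand on the log2 scale differed with the presence of the other. In EGF+OSM these were 0.87 for NOTCH1, 0.2 for NOTCH2, -1.17 for NOTCH3, -1.46 for JAG1, -0.56 for LFNG and -1.56 for NRARP (log2). In EGF+TGFB they were 0.4 for NOTCH2, -0.8 for NOTCH3, -0.4 for JAG2, -0.5 for HES1, -0.78 for LFNG and -2.17 for NRARP. In OSM+TGFB they were 0.39 for NOTCH2, -0.46 for JAG1, -0.36 for JAG2, -2.65 for DLL1 and -2.23 for NRARP. Of all genes, 38.7% were called in EGF+OSM, 29.8% in EGF+TGFB and 23.3% in OSM+TGFB. NRARP and NOTCH2 were on the list for all 3 pairs, NRARP below the sum and NOTCH2 above it, and HEY1 for none of them. The NOTCH2 call in EGF+OSM was lost in 4 of 19 alternatives. That of NOTCH3 in EGF+TGFB was lost in 3 of 19, and that of JAG2 in OSM+TGFB in 4 of 19.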

How the results depend on the processing

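No direction of a called result was reversed by any alternative that was run. Over the 10 genes and 21 comparisons, 1430 values under other settings kept their side of the threshold, 26 lost and 8 gained a call. With 1 library left out, 1470 kept it, 52 lost and 8 gained a call. An added limit of 2-fold lowered the number of members called to 3 each with EGF, EGF+TGFB and OSM+TGFB and 1 for PBS against T0. With that limit it was 4 for OSM added to EGF, 2 for EGF added to OSM, 3 for TGFB added to EGF, 5 for EGF added to TGFB, 3 for TGFB added to OSM, 2 for TGFB added to EGF+OSM, 4 for OSM added to EGF+TGFB and 4 for EGF added to OSM+TGFB. For departures it was 3 in EGF+OSM, 1 in EGF+TGFB, 2 in OSM+TGFB and 4 for the 3 ligands. In the comparisons not listed here the number fell by a smaller factor or stayed the same. The share of all genes called with this added limit was not computed, so these numbers have no background beside them. DESeq2 called 4 members with TGFB, against 2, where it called 37.7% of all genes, and the cause was not tested. Leaving out a library gave 7 to 8 members for EGF, 7 to 7 for OSM, 2 to 3 for TGFB, 8 to 9 with EGF+OSM, 8 to 10 with EGF+TGFB, 5 to 6 with OSM+TGFB and 10 to 10 with the 3 ligands. For a ligand added to others the ranges were 6 to 7 (OSM to EGF), 5 to 7 (EGF to OSM), 8 to 8 (TGFB to EGF), 9 to 9 (EGF to TGFB), 6 to 8 (TGFB to OSM, against 9), 5 to 7 (OSM to TGFB), 7 to 8 (TGFB to EGF+OSM), 5 to 7 (OSM to EGF+TGFB) and 7 to 8 (EGF to OSM+TGFB). The share of all genes called was not computed with a library left out, so these ranges have no background beside them. Leaving out OSM replicate 3 changed only HEY1 calls among the members: EGF added to OSM became called (log2 -0.656) and TGFB added to OSM was lost (0.425). Calls not described in the report that were lost without a single library were NOTCH1 with TGFB on OSM (OSM 1 or 2, OSM+TGFB 3; -0.247 to -0.176; also lost with no filter, -0.321, or only the compared groups fitted, -0.33), NOTCH1 with OSM on EGF+TGFB (EGF+TGFB 2, EGF+OSM+TGFB 1 or 3; -0.405 to -0.368) and NOTCH2 with OSM on EGF (EGF 2, EGF+OSM 1 or 3; -0.142 to -0.106). The same held for JAG2 and NRARP with OSM on TGFB (JAG2 without TGFB 1, OSM+TGFB 2 or 3, -0.212 to -0.172; NRARP without TGFB 1, -0.547) and HEY1 in EGF+TGFB (PBS 2 or EGF+TGFB 3, -0.434 to -0.38; also with no filter, -0.522). Calls gained in this way were NOTCH3 with TGFB on EGF+OSM (EGF+OSM 3 or EGF+OSM+TGFB 2, -0.629 to -0.584) and with OSM on EGF+TGFB (EGF+OSM+TGFB 2, -0.588), JAG2 with EGF on OSM (EGF+OSM 1, -0.251, and with upper-quartile scaling, -0.202), HEY1 with EGF on OSM (EGF+OSM 1, -0.782) and DLL1 in EGF+TGFB (EGF+TGFB 2, 1.25). Upper-quartile scaling moved the members' log2 values by -0.096 to 0.062. Fitting only the compared groups moved the upward share of all called departures in EGF+TGFB from 44.7% to 33.5%. With the replicate number as a block, the members called were 8 for EGF, 7 for OSM and 3 for TGFB, where NOTCH1 gained a call (log2 -0.33), and the block changed no other member's call. The labels do not say that a number marks a shared culture or day, and 85 of 108 same-numbered pairs deviated together with a correlation over 0.1 (lowest -0.0713), so the numbers were not taken to pair the samples, although 27 of 27 libraries correlated best with their own number. Depth limits DLL1 (3 to 6 counts in PBS libraries) and NRARP (5 to 16 with the 3 ligands).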
